A study of Mus musculus with 6 samples.

Results

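Genes of collagen chains, laminin chains and basement membrane proteins were followed in RNA of cultured mouse microglia, the resident macrophages of the brain. The set was taken by symbol: collagen alpha chains, every Lama, Lamb and Lamc gene, fibronectin (Fn1), the nidogens Nid1 and Nid2, perlecan (Hspg2) and lysyl oxidase (Lox). It came to 59 of 48005 gene entries, with 43 collagens, 11 laminins and 5 others. In 3 of the entries (Col3a1, Col7a1 and Col20a1) the gene shares an identifier with an overlapping gene, so its counts cannot be fully separated from that neighbour.

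The microglia were of CD1 strain mice. One group of 3 libraries, EV-treated A, B and C, came from cells given extracellular vesicles (EVs), membrane particles that primary neural stem cells of the subventricular zone had released in monolayer culture and that serial centrifugation had collected. The other group, control A, B and C, had the control treatment, whose content is not described in the sources used here. The age of the mice, the vesicle dose and the hours of exposure are likewise not given in the sources used here. Nothing in the labels tells whether the libraries within a group are of different cultures or mice, so p-values reflect the spread among these 6 libraries, which may be technical.

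Basement membranes are thin sheets in which a network of laminin trimers and a network of type IV collagen are bridged by nidogens and perlecan. Fibrillar collagens and fibronectin form the looser matrix beside them, and lysyl oxidase cross-links collagen and elastin. In the brain these proteins lie mainly around vessels and under the meninges, and macrophages both make and break down some of them.

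Summed over all exon bins, the libraries held 133112063 to 142805303 counts in the EV-treated group and 109744701 to 162544804 in the control group. Levels are CPM, the counts scaled to a common library size with TMM factors and set relative to it (counts per 1000000), and values of 3 libraries are given in the order A, B, C. Of 16 markers of microglia and macrophages, none was under 1 CPM in every library. Csf1r, the receptor for colony-stimulating factor, lay at 692 to 884 CPM in EV-treated and 736 to 801 CPM in control libraries, and Tmem119 at 2.39 to 3.51 CPM in EV-treated and 5.18 to 9.21 CPM in control libraries. P2ry12, a receptor of resting microglia, lay at 0.0565 to 0.123 CPM in EV-treated and 2.90 to 5.06 CPM in control libraries. Of these markers 1 rose and 12 fell, and their sum was 8700 to 9308 CPM in EV-treated and 8896 to 10855 CPM in control libraries. The marker that rose was Adgre1 (F4/80), at 3636 to 4131 CPM in EV-treated and 595 to 696 CPM in control libraries, and without it the other 15 summed to 5064 to 5247 CPM in EV-treated and 8274 to 10159 CPM in control libraries. Of 7 tested astrocyte markers 4 rose and 1 fell. Their list summed to 95.2 to 131 CPM in EV-treated and 15.2 to 20.5 CPM in control libraries, mostly Slc1a2 and Gja1 in EV-treated libraries, while Aldh1l1 fell and Gfap, Aqp4, Sox9 and S100b were at most 0.143 CPM. Of 5 tested neural stem cell markers 2 rose (Prom1 and Egfr) and 2 fell (Nes and Fabp7), with a sum of 7.01 to 8.39 CPM in EV-treated and 56.1 to 98.2 CPM in control libraries, in control libraries mostly Nes. Of 5 tested neuron markers 2 rose and 1 fell (sum 2.41 to 2.83 CPM in EV-treated and 0.638 to 0.780 CPM in control libraries), and of 6 tested oligodendrocyte markers 0 rose and 2 fell (sum 27.3 to 29.0 CPM in EV-treated and 70.5 to 74.8 CPM in control libraries). The part of these markers in the results on matrix genes was not tested. In bulk RNA, fewer cells of a type and less RNA per cell cannot be told apart. Among the 45 members that passed the filter on low counts, control C was the highest control library for 29, control A for 9 and control B for 7. For 13 members control C was at least 2 times the next control, and results that rest on it are given with and without it.

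The filter removed 14 members and left 45. The comparison was edgeR's quasi-likelihood test over all 16605 entries, with Benjamini-Hochberg adjustment and a threshold of 0.05. Relative to control, 13 members rose, 15 fell and 17 did not pass, so 62.2% of the tested members were called, against 66.5% of all entries tested. By direction, 28.9% of the members rose, against 33% of all entries, and 33.3% fell, against 33.5%. These shares are near the background and are no result about the set, so what follows concerns its single genes. The median log2 fold change of the tested members was 0.38, beside -0.02 over all entries. EV-treated and control values did not overlap for 27 of the 45, against 71.3% of all entries. The filter asked for 3 libraries past its cut. For 4 members all 3 EV-treated but fewer control libraries were past it, and for 3 members all 3 control but fewer EV-treated libraries. With library totals alone in place of TMM, 9 members rose and 16 fell.

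**Figure D1:**
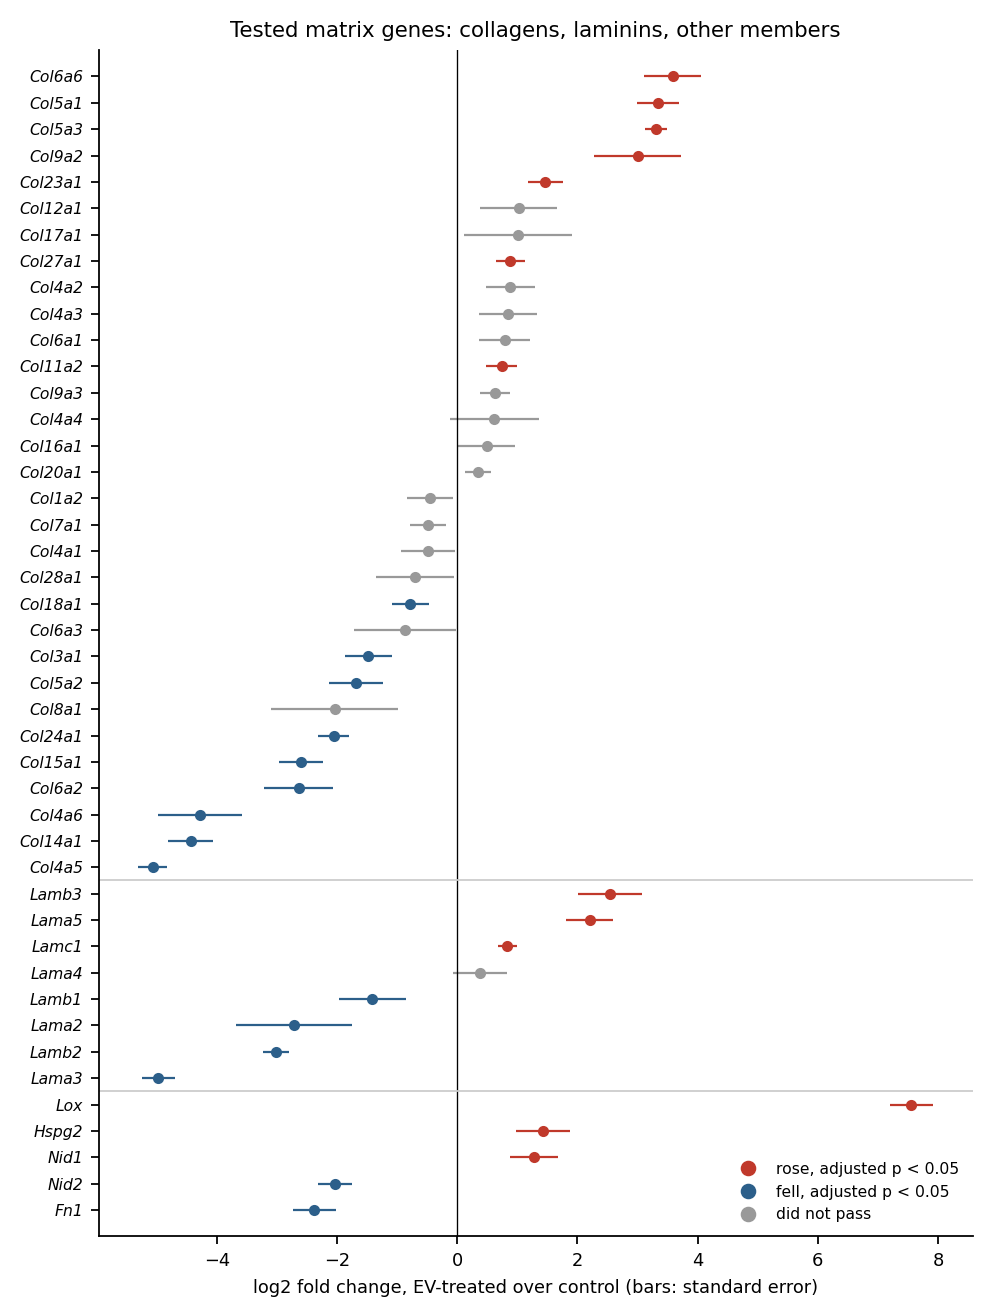
log2 fold change of EV-treated over control libraries (horizontal axis) with its standard error for 44 of the 45 tested members, grouped from the top as collagens, laminins and other members. Lox lies farthest to the right at 7.56 and Col4a5 farthest to the left at -5.07, and each family holds genes on both sides of 0.

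Lox carried the widest difference of the set. It encodes lysyl oxidase, the copper enzyme that starts cross-linking of collagen and elastin fibres. EV-treated libraries held 491, 411 and 675 CPM, against 2.09, 4.22 and 2.11 CPM in control libraries. The groups did not overlap. The means were 526 ± 135 CPM in EV-treated and 2.80 ± 1.22 CPM in control libraries (SD, n = 3 each), a log2 fold change of 7.56 (SE 0.36, edgeR adjusted p = 1.1e-07) or 188-fold. Over the 9 Lox bins that could be tested, no change of exon bin use was called (edgeR adjusted p = 0.991). Of its 10 bins, 1 is overlapped by an exon on the opposite strand, and that bin held 18.2% of the Lox counts. Whether the counting used strand is not given in the sources used here.

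Enzymes that modify and fold collagen moved in both directions. Of 29 tested genes on a collagen processing list, 12 rose, 9 fell and 8 did not pass, with a median log2 fold change of 0.22. The shares over all entries were 33% risen and 33.5% fallen. P4ha2, a catalytic subunit of the prolyl hydroxylase that stabilises the collagen helix, had 404, 381 and 421 CPM in EV-treated libraries, against 5.70, 6.40 and 7.28 CPM in control libraries, without overlap (log2 fold change 5.96, SE 0.15, edgeR adjusted p = 2.99e-09). Plod2, the lysyl hydroxylase of the collagen end regions that lysyl oxidase acts on, had 78.3, 76.3 and 96.5 CPM in EV-treated libraries, against 1.19, 1.30 and 1.87 CPM in control libraries. Its log2 fold change was 5.83 (SE 0.20, edgeR adjusted p = 1.7e-08). Loxl3, a paralog of Lox, went the other way, with 2.90, 3.01 and 4.08 CPM in EV-treated libraries, against 22.4, 29.9 and 26.2 CPM in control libraries (log2 fold change -2.97, SE 0.18, edgeR adjusted p = 4.12e-07). P3h3, of the prolyl hydroxylase family, was also lower, at 7.52, 6.67 and 9.77 CPM in EV-treated and 35.8, 29.6 and 30.8 CPM in control libraries (log2 fold change -2.004, SE 0.16, edgeR adjusted p = 2.85e-06).

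Per kb of exon, the order of the members differed between the groups. In EV-treated libraries the highest levels were those of Lox at 109 ± 28.1 CPM per kb, Lamc1 at 18.6 ± 3.14, Fn1 at 17.4 ± 7.25, Col23a1 at 7.97 ± 0.630 and Col5a1 at 5.35 ± 2.07 (SD, n = 3). In control libraries they were those of Fn1 at 90.6 ± 36.1 CPM per kb, Lamc1 at 10.5 ± 1.64, Lamb2 at 7.56 ± 1.40, Lama3 at 4.47 ± 1.21 and Col18a1 at 3.08 ± 1.70 (SD, n = 3). Within the EV-treated order, Lamc1 and Fn1 differed by less than the sum of their SDs, and so did Col23a1 and Col5a1. Within the control order the same held for Lamc1 and Lamb2 and for Lama3 and Col18a1. It also held for Col18a1 and the next members, Col23a1 at 2.89 ± 1.32 and Col24a1 at 2.67 ± 0.958. The control mean of Col18a1 rested much on control C, at 35.3 CPM beside 13.2 CPM in control A and 16.5 CPM in control B. Lox ranked first in EV-treated and 14th in control libraries, whereas Lama3 ranked 25th in EV-treated and 4th in control libraries.

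**Figure D2:**
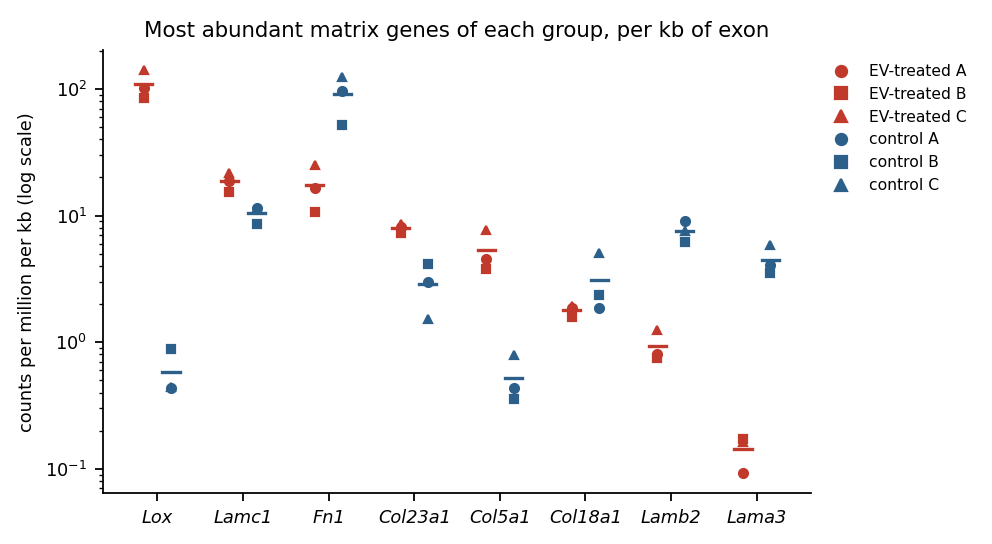
CPM per kb of exon (log axis) of the 8 members among the 5 highest of either group, one symbol per library with EV-treated to the left of control and a bar at each mean. Lox stands at 109 CPM per kb in EV-treated and 0.583 in control libraries, Fn1 at 17.4 in EV-treated and 90.6 in control libraries.

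Fn1 encodes fibronectin, the adhesive glycoprotein that integrins bind and assemble into fibrils. It lies on the minus strand of GRCm38 at chr1:71585520-71653200. EV-treated libraries had 191, 125 and 294 CPM, against 1117, 611 and 1449 CPM in control libraries. Every EV-treated value was below every control value, and in both groups replicate B was lowest and C highest. The log2 fold change was -2.38 (SE 0.36, edgeR adjusted p = 0.000255), with means of 204 ± 84.7 CPM in EV-treated and 1059 ± 422 CPM in control libraries (SD, n = 3 each).

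The fibronectin transcript also differed in its make-up. Its RNA is spliced alternatively at the extra domains EDB and EDA and at the variable V region. Because the deposited counts are per exon bin, each can be set against the coding bins beside it. The EDA exon is coding, belongs to 4 of 9 protein-coding Fn1 transcripts of GENCODE M21, and is printed from those transcripts (minus strand, chr1:71603660-71603929, 270 bases) because the difference lies in it. Capitals mark the 4 codons, found in frame, that open the loop through which integrins contact this domain.
Fn1 EDA exon: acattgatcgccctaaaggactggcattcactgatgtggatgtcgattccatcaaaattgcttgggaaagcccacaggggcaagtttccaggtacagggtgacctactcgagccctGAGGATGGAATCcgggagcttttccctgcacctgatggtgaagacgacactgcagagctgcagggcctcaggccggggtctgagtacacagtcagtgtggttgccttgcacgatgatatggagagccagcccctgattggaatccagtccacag

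Per 100 counts in the 2 neighbouring coding bins, the EDA exon had 20.6, 24.6 and 19.7 counts in EV-treated libraries, against 4.04, 3.73 and 4.28 in control libraries. The groups lay far apart beside their spread, at 21.6 ± 2.64 in EV-treated and 4.02 ± 0.275 in control libraries (SD, n = 3 each), a ratio of 5.39. A 2-sided exact permutation test over the libraries gave p = 0.1, the smallest value that 3 against 3 allows. The Fn1 segments were chosen after values were seen, so their permutation p-values are descriptions and not independent tests. In edgeR's test of single bins, which asks whether a bin moves apart from the rest of its gene, the exon had a log2 difference of 2.44 relative to Fn1 as a whole (adjusted p = 0.000697). Of the 68 Fn1 bins tested it alone passed, and the test over all Fn1 bins together did not (edgeR adjusted p = 1). Over all bins tested the share that passed was 4.19%. In counts, the exon held 173, 139 and 282 in EV-treated libraries and 199, 103 and 431 in control libraries, so a larger share went with a lower Fn1 total.

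A segment of the V exon showed a difference in the same direction that did not pass the bin test. It is the first 75 coding bases of that exon (minus strand, chr1:71597673-71597747), held by 3 of 9 protein-coding transcripts and skipped where splicing uses an acceptor at its 3′ end. It is printed for comparison with the EDA exon, with the final AG, which lies just before that inner acceptor, in capitals.
Fn1 V segment: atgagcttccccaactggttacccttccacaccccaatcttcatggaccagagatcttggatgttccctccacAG

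Per 100 counts of the next V bin, the segment had 43.4, 36.9 and 47.7 counts in EV-treated libraries, against 18.5, 17.3 and 18.4 in control libraries. Every EV-treated value was above every control value (2-sided exact permutation p = 0.1), while edgeR's bin test gave a relative log2 difference of 1.38 and an adjusted p of 0.0783. The EDB exon was hardly used in either group, with 3, 8 and 18 counts in EV-treated libraries and 10, 3 and 37 in control libraries. Its ratio to the neighbouring bins overlapped between the groups (2-sided exact permutation p = 0.2).

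**Figure D3:**
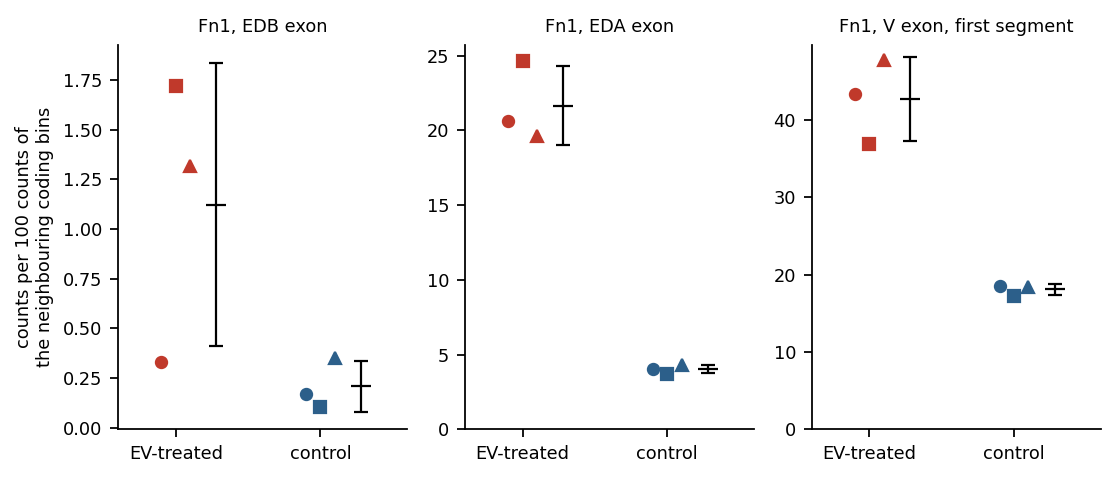
Counts of 3 alternative Fn1 segments per 100 counts of their neighbouring coding bins (vertical axes, each with its own range from 0), with circles, squares and triangles for libraries A, B and C and bars for mean ± SD. EDA lies at 21.6 in EV-treated and 4.02 in control libraries, the V segment at 42.7 in EV-treated and 18.1 in control libraries, and EDB near 0 in both groups.

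Over the whole set, 27 members could be tested for exon bin use and 2 were called, Col20a1 and Col4a5, against 29.7% of all entries. Of 902 member bins 5 were called, against 4.19% of all bins tested. The Col20a1 call lies in its joined entry. The 5 bins inside exons of its neighbour BX649560.1 held 21.9%, 18.4% and 18.6% of the entry's counts in EV-treated libraries and 38.8%, 45.0% and 35.8% in control libraries (edgeR adjusted p = 5.42e-05 for the entry). The Col4a5 call (edgeR adjusted p = 0.04) turned on few counts, since its changed bin of 93 bases held 4, 9 and 0 counts in EV-treated libraries and 34, 40 and 47 in control libraries. It was lost when any control library was left out (edgeR adjusted p = 0.279 to 0.456).

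**Figure D4:**
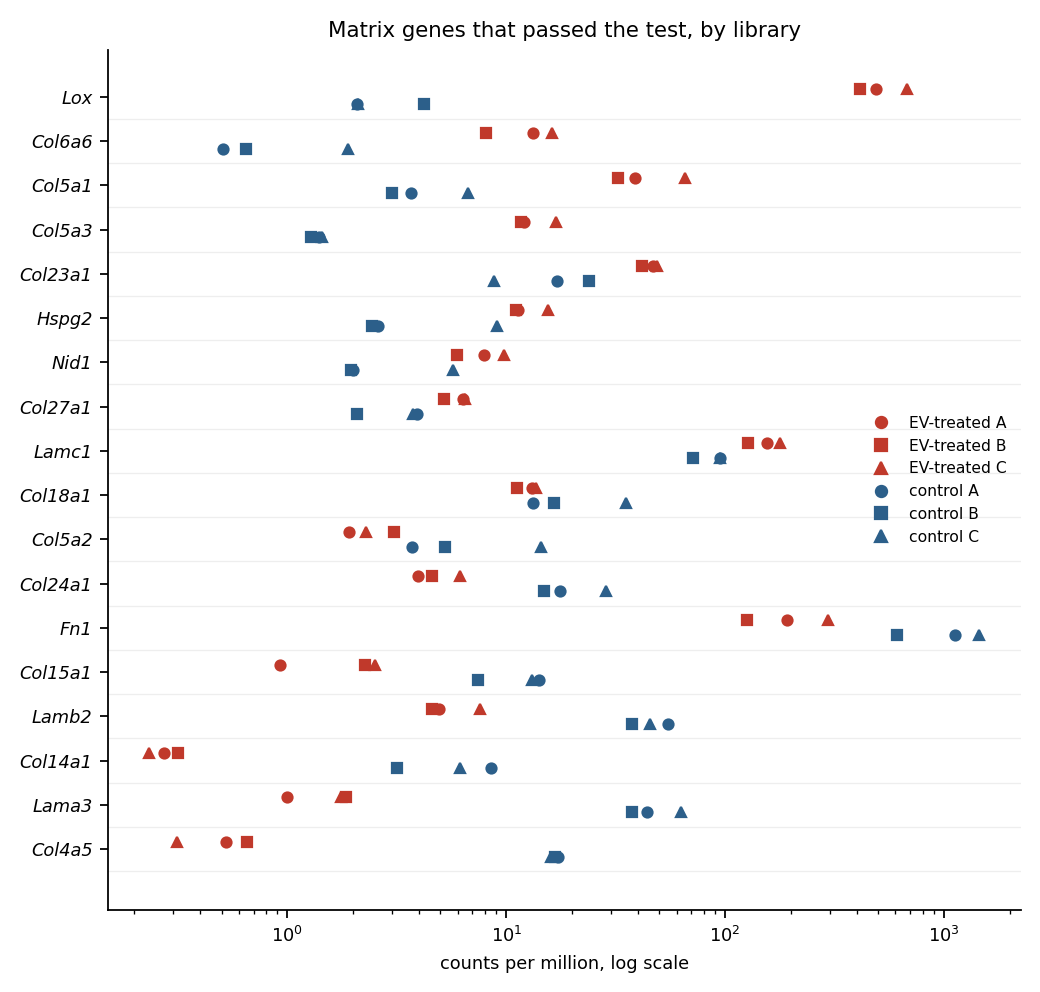
CPM (log axis) in each library of the 18 members that passed the test with a mean log2 CPM of at least 1, ordered from the highest fold change at the top to the lowest, with EV-treated symbols above control symbols in each row. The groups overlap in 1 row, Col18a1, where control A lies among the EV-treated libraries.

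Type IV collagen, the network former of basement membranes, did not change alike in all its chains. Its genes sit head to head in 3 pairs, Col4a1 with Col4a2, Col4a3 with Col4a4, and Col4a5 with Col4a6, and the protein is a trimer of set combinations of these chains. Col4a5 of the X-linked pair fell, and its partner Col4a6 was called as lower on few counts. Col4a5 (plus strand, chrX:141475385-141689234) had 0.525, 0.650 and 0.312 CPM in EV-treated libraries, against 17.2, 16.7 and 15.97 CPM in control libraries. The control libraries lay close together and far above the EV-treated ones, with a log2 fold change of -5.07 (SE 0.24, edgeR adjusted p = 9.62e-08). Col4a6 (minus strand, chrX:141165403-141474076) was much lower in level, at 0.0726, 0 and 0.0390 CPM in EV-treated libraries and 0.691, 0.465 and 1.10 CPM in control libraries. Its log2 fold change was -4.28 (SE 0.70, edgeR adjusted p = 0.000408), and -5.16 without EV-treated A. It passed the filter through the control libraries alone.

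The autosomal pairs did not pass. Col4a1 had 1.91, 2.54 and 4.24 CPM in EV-treated libraries, against 1.82, 3.32 and 7.06 CPM in control libraries. Its log2 fold change of -0.49 (edgeR adjusted p = 0.357) turned to 0.16 without control C. Col4a2, its partner, had 5.49, 4.39 and 6.45 CPM in EV-treated libraries, against 1.59, 1.88 and 5.34 CPM in control libraries. It missed the threshold with a log2 fold change of 0.88 (SE 0.41, edgeR adjusted p = 0.0806) and passed at 1.63 without control C (edgeR adjusted p = 0.000179) and at 0.81 without the filter (edgeR adjusted p = 8.44e-05). It also passed with limma-voom (1.02, adjusted p = 0.0375) and with the exon bin of most counts (1.43, edgeR adjusted p = 0.00967). It did not pass with DESeq2 (adjusted p = 0.146), RLE scaling (edgeR adjusted p = 0.0687) or library totals alone (edgeR adjusted p = 0.302). It passed in the other direction once the ratio of sex-linked genes described further on was a covariate, at -0.81 (edgeR adjusted p = 0.0466), and Col4a1 passed at -2.34 (edgeR adjusted p = 0.00259). Col4a1 also passed as lower without the filter (-0.57, edgeR adjusted p = 0.0123). The table's starts of Col4a1 and Col4a2 overlap, and bins overlapped by an exon of the opposite strand held 0.915% of the Col4a1 and 2.23% of the Col4a2 counts. Col4a3 and Col4a4 stayed at or below 0.195 CPM in every library, and in Col4a3 70.8% of the counts lay in a bin that an exon of the opposite strand overlaps.

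**Figure D5:**
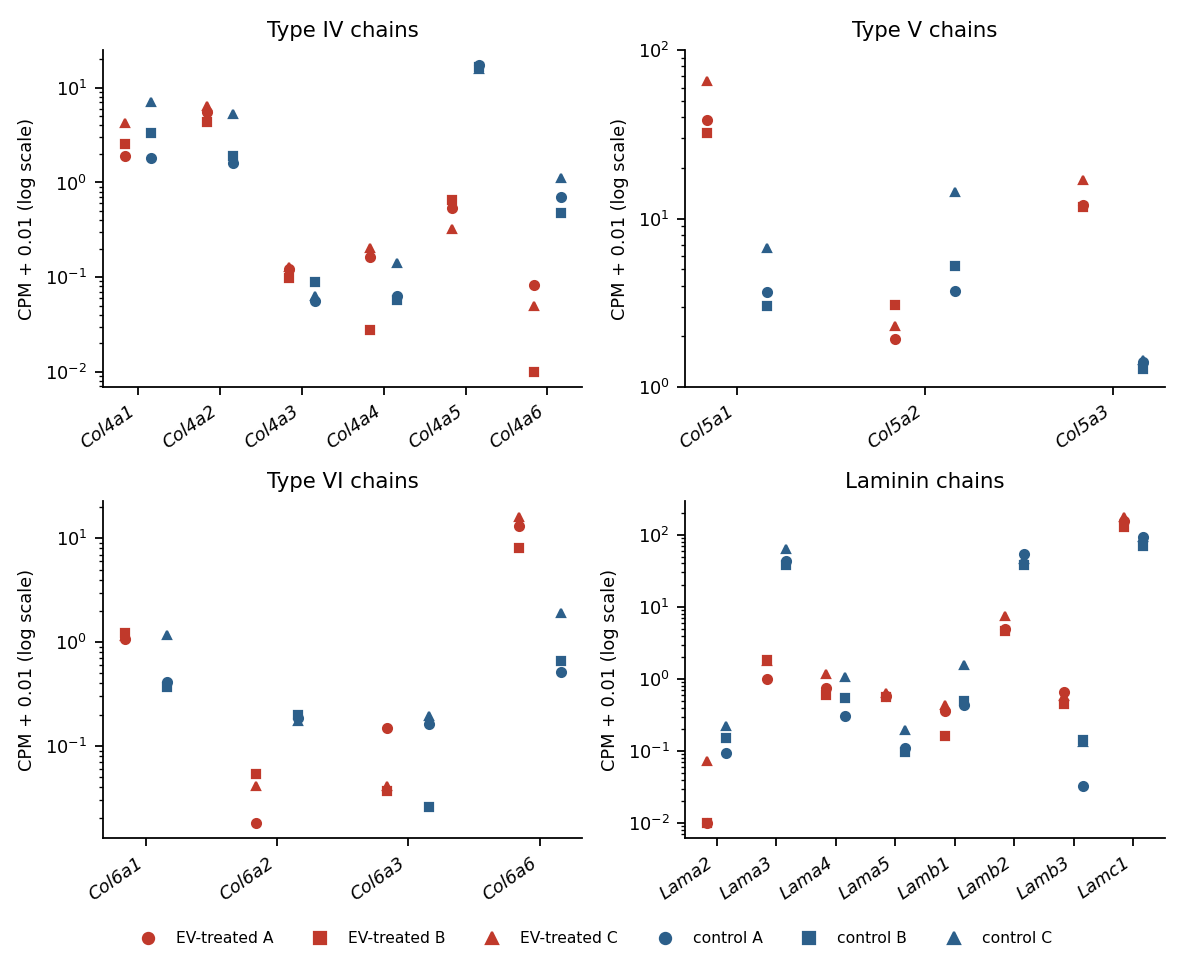
CPM plus 0.01 (log axes) of tested chains of collagen types IV, V and VI and of laminin, one symbol per library, with EV-treated to the left of control for each gene. Col4a5 and Col4a6 are lower and Col5a1, Col5a3 and Col6a6 higher in EV-treated libraries, while control C is the highest control for Col4a1, Col4a2, Col5a2 and Lamb1.

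Between the starts of Col4a6 and Col4a5 lie 1308 bases. The bases upstream of each start are shown because Col4a5 fell and Col4a6 is its head-to-head partner. They stand next to those of Col5a1 and Col5a3, which both rose. They are from RefSeq (GRCm38.p6), each read 5′ to 3′ on its own gene's strand and ending where annotated exon begins. Capitals mark letters of the motifs searched on both strands, TGANTCA (the AP-1 site), ACGTG (the core of the hypoxia response element), GGGCGG (the GC box) and the kappa B consensus. No 2 of these marked stretches overlap.
Col4a5, plus strand, chrX:141475169-141475384: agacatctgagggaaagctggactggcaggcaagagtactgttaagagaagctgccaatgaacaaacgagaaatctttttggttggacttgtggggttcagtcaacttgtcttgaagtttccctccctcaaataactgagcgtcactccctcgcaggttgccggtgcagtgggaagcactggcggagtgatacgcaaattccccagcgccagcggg
Col4a6, minus strand, chrX:141474077-141474326: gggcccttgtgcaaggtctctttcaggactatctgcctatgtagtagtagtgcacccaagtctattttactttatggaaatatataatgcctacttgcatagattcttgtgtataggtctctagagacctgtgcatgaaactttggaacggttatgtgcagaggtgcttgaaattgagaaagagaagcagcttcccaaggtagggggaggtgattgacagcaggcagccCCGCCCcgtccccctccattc
Col5a1, plus strand, chr2:27886175-27886424: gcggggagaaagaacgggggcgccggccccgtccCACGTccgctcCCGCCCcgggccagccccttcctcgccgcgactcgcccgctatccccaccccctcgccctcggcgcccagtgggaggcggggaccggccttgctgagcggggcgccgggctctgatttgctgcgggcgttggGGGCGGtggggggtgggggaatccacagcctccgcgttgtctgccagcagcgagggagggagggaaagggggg
Col5a3, minus strand, chr9:20815068-20815317: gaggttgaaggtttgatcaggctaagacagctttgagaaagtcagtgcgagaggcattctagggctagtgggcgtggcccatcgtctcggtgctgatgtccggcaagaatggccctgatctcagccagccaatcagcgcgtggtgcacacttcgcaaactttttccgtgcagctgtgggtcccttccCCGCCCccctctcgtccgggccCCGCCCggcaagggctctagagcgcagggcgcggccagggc

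Upstream windows of 250 bases were found for 42 of the 59 members. Among them were 11 that rose, 10 that fell and 12 that did not pass. Lox and Lamc1, which rose, had no window. The GC box occurred upstream of 10 of the 11 members that rose and 5 of the 10 that fell (for Col4a5 in bases of its window that lie in annotated exon and are not printed), and of 35.4% of all 27025 genes with a window. The hypoxia core ACGTG occurred upstream of 3 of the 11 (Col5a1, Col6a6 and Col11a2) and 0 of the 10, against 18.5% of all genes. A kappa B consensus occurred upstream of 3 of the 11 (Col9a2, Col27a1 and Lamb3) and 0 of the 10, against 4.46% of all, and TGANTCA of none of either, against 7.82% of all. Of the 12 members that did not pass, 5 had the GC box, 2 ACGTG, 1 TGANTCA and 0 a kappa B consensus. A gene counts where any of its windows holds the motif. The genes with a window were not limited to those tested here. These are letter matches, not sites of binding.

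Type V collagen, which joins fibrils of other types and sets their width, changed in opposite directions by chain. Col5a1, its main chain, had 38.5, 32.3 and 65.4 CPM in EV-treated libraries, against 3.67, 3.002 and 6.67 CPM in control libraries. The groups did not overlap (log2 fold change 3.34, SE 0.35, edgeR adjusted p = 1.99e-05). Col5a3, the less common chain, followed with 12.1, 11.7 and 16.9 CPM in EV-treated libraries, against 1.40, 1.28 and 1.44 CPM in control libraries (log2 fold change 3.30, SE 0.18, edgeR adjusted p = 2.7e-07). Col5a2, the partner of Col5a1 in the common trimer, went lower, with 1.91, 3.07 and 2.30 CPM in EV-treated libraries, against 3.71, 5.24 and 14.4 CPM in control libraries. Its log2 fold change of -1.69 (SE 0.45, edgeR adjusted p = 0.00771) was -0.90 without control C, still past the threshold (edgeR adjusted p = 0.00987).

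The other fibrillar collagens were likewise divided. Col24a1 (chr3:145292472-145552011), a short fibrillar chain, had 3.96, 4.57 and 6.16 CPM in EV-treated libraries, against 17.5, 14.9 and 28.6 CPM in control libraries (log2 fold change -2.05, SE 0.26, edgeR adjusted p = 7.37e-05, and -1.46 with the exon bin of most counts). Col27a1 (chr4:63214004-63334991), its relative of cartilage, was higher by a small margin, at 6.32, 5.19 and 6.49 CPM in EV-treated and 3.92, 2.07 and 3.75 CPM in control libraries (log2 fold change 0.88, SE 0.24, edgeR adjusted p = 0.00785), and the call was lost with library totals alone (0.53, edgeR adjusted p = 0.0711). Col3a1, in a joined entry whose neighbour's exons hold 1.94% of the counts, had 1.001, 1.20 and 0.867 CPM in EV-treated and 1.40, 2.39 and 4.75 CPM in control libraries, and fell by 1.48 on the log2 scale (edgeR adjusted p = 0.00776). Col11a2 rose by 0.74 (edgeR adjusted p = 0.0306) with overlapping groups, and the call was lost without EV-treated B, EV-treated C, control B or control C (edgeR adjusted p = 0.0619 to 0.106), with library totals alone or upper-quartile scaling, and with the exon bin of most counts (edgeR adjusted p = 0.0603 to 0.233). Col1a2, of type I collagen, did not pass, with 7.31, 11.6 and 9.06 CPM in EV-treated libraries, against 7.14, 8.81 and 22.2 CPM in control libraries. Its log2 fold change of -0.45 (edgeR adjusted p = 0.311) turned to 0.20 without control C, and it passed as lower without the filter (-0.53, edgeR adjusted p = 0.00224).

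Genes that mark fibroblasts, the main makers of fibrillar collagen, were divided. Of 16 fibroblast and meningeal markers 11 were under 1 CPM in every library. Dpt, Tcf21, Meox1, Lum and Thy1 were at most 0.0615 CPM, and Dpt, Tcf21 and Meox1 had no count in most libraries. Of the 7 that could be tested, 5 rose and 1 fell, and the median of their log2 fold changes was 3.45. Foxc1 lay at 4.22 to 7.41 CPM in EV-treated and 0.0473 to 0.101 CPM in control libraries, Pdgfra at 2.74 to 3.26 CPM in EV-treated and 0.244 to 0.296 CPM in control libraries, and Pdgfrb at 2.18, 2.46 and 4.498 CPM in EV-treated and 0.243 to 0.546 CPM in control libraries. Dcn and Twist1 rose as well and were at most 1.17 CPM. The list's summed level was 94.5 to 106 CPM in EV-treated and 146 to 293 CPM in control libraries, most of it Postn, which fell by 1.35 on the log2 scale. Of 7 tested pericyte and smooth muscle markers 0 rose and 4 fell, and the list summed to 284 to 401 CPM in EV-treated and 931 to 1261 CPM in control libraries, with Rgs5 and Kcnj8 at 0 in all control libraries and at most 0.0625 CPM elsewhere. Of 7 tested endothelial markers 4 rose and 1 fell. Kdr lay at 21.3 to 31.0 CPM in EV-treated and 4.17 to 5.70 CPM in control libraries, Pecam1 at 1.82 to 2.83 CPM in EV-treated and 0.236 to 0.266 CPM in control libraries, and Cdh5 and Esam rose too. Flt1, which fell, lay at 13.3 to 18.8 CPM in EV-treated and 71.1 to 170 CPM in control libraries and made up most of the control sum. The list summed to 46.3 to 51.3 CPM in EV-treated and 77.4 to 175 CPM in control libraries, with Sox17 at 0 throughout and Cldn5 at most 0.0156 CPM. The part of these markers in the collagen results was not tested either.

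Among the beaded and membrane-spanning collagens, Col6a6 and Col23a1 rose. Col6a6, a chain of type VI collagen, which forms beaded filaments near basement membranes, had 13.2, 8.05 and 16.2 CPM in EV-treated libraries, against 0.509, 0.646 and 1.90 CPM in control libraries. The groups did not overlap, with a log2 fold change of 3.59 (SE 0.47, edgeR adjusted p = 0.000104), and 4.41 without control C. None of its tested partners passed as higher. Col6a1 had 1.06, 1.20 and 1.13 CPM in EV-treated libraries, against 0.402, 0.362 and 1.17 CPM in control libraries (log2 fold change 0.79, edgeR adjusted p = 0.127), and passed at 1.54 without control C and at 0.72 without the filter. Col6a2 fell by 2.64 on the log2 scale (edgeR adjusted p = 0.00257) at no more than 0.189 CPM in any library, having passed the filter through the control libraries alone, and Col6a3 was at no more than 0.186 CPM and did not pass. Col23a1 (chr11:51289920-51583918), a transmembrane collagen that can be shed, had 46.8, 41.7 and 48.7 CPM in EV-treated libraries, against 17.1, 23.9 and 8.79 CPM in control libraries. It was higher in every EV-treated library (log2 fold change 1.47, SE 0.29, edgeR adjusted p = 0.00139).

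Of the collagens that decorate fibrils or link basement membranes to them, Col14a1, Col15a1 and, by a small margin, Col18a1 fell. Col14a1 (chr15:55307750-55520803), which binds the surface of fibrils, had 0.274, 0.316 and 0.234 CPM in EV-treated libraries, against 8.55, 3.17 and 6.16 CPM in control libraries. It lay well apart in the 2 groups (log2 fold change -4.44, SE 0.38, edgeR adjusted p = 4.74e-06). Col15a1 (chr4:47208161-47313167), a proteoglycan of basement membrane zones, had 0.920, 2.27 and 2.51 CPM in EV-treated libraries, against 14.1, 7.42 and 13.1 CPM in control libraries (log2 fold change -2.60, SE 0.37, edgeR adjusted p = 0.000162). Its relative Col18a1, the source of endostatin, had 13.1, 11.1 and 13.7 CPM in EV-treated libraries, against 13.2, 16.5 and 35.3 CPM in control libraries. That difference was small and the groups overlapped, with a log2 fold change of -0.78 (SE 0.31, edgeR adjusted p = 0.0493), and -0.25 without control C (edgeR adjusted p = 0.169). The call was also lost without any one of the EV-treated libraries (edgeR adjusted p = 0.0789 to 0.128), with RLE scaling, with the stricter filter, with limma-voom and with the exon bin of most counts (adjusted p = 0.0543 to 0.0856). Of the 2 outer starts of Col18a1, the first exon of the first held 26, 12 and 14 counts in EV-treated and 17, 29 and 71 in control libraries, and that of the second held 4, 15 and 1 counts in EV-treated and 1, 3 and 0 in control libraries.

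Further collagens were low. Col9a2, of the fibril-associated type IX, rose by 3.001 on the log2 scale (edgeR adjusted p = 0.00459) at 0.274 to 0.468 CPM in EV-treated and 0 to 0.0849 CPM in control libraries, and by 3.95 without control C. All 3 EV-treated libraries but only 1 control library were past the filter's cut, so Col9a2 met the filter in the group where it is high. Its partner Col9a3 had 1.27, 1.28 and 2.05 CPM in EV-treated libraries and 0.972, 1.11 and 0.907 CPM in control libraries, without overlap, and did not pass (edgeR adjusted p = 0.0513). Also not passed were Col7a1 of anchoring fibrils, Col8a1, Col12a1, Col16a1, Col17a1, Col20a1 and Col28a1, with log2 fold changes of -2.04 for Col8a1 to 1.02 for Col12a1 and Col17a1. Among them Col20a1, in its joined entry, had the highest level, at 9.19, 9.95 and 16.9 CPM in EV-treated and 8.93, 8.55 and 10.9 CPM in control libraries. That result is of the whole entry. Bins inside the neighbour's exons held 250, 208 and 401 counts in EV-treated and 457, 488 and 734 in control libraries. The other bins held 889, 924 and 1757 counts in EV-treated and 720, 597 and 1314 in control libraries. The parts were not tested one by one. Without control C, Col12a1 (1.79) and Col16a1 (1.22) passed and Col28a1 turned to 0.56. With the ratio of sex-linked genes as a covariate Col16a1 passed in the other direction (-1.40, edgeR adjusted p = 0.0391), Col12a1 stood at -0.997 and Col28a1 passed at -2.71 (edgeR adjusted p = 0.0146). Col7a1, at -0.48 with all libraries, passed at -0.91 without EV-treated C, Col8a1 at -4.19 without EV-treated C and -2.55 without control A, and Col9a3 at 0.74 without EV-treated B. Col8a1 also passed without the filter (-2.11, edgeR adjusted p = 0.00655).

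Laminins are trimers of 1 alpha, 1 beta and 1 gamma chain, and here alpha chains moved in both directions. Among the beta chains only Lamb3 was called as higher, and it met the filter in the group where it is high. Of 9 tested chains 3 rose (33.3%) and 4 fell (44.4%), against 33% risen and 33.5% fallen of all entries. With 9 chains these shares are no result about the family. Lamc1 (chr1:153218922-153332786), the common gamma chain, was the most abundant laminin in both groups, with 156, 127 and 179 CPM in EV-treated libraries, against 94.3, 71.0 and 94.6 CPM in control libraries. The groups did not overlap, by a modest margin (log2 fold change 0.83, SE 0.16, edgeR adjusted p = 0.00113). Lama3, the alpha chain of the laminin that anchors epithelia, had 0.993, 1.85 and 1.75 CPM in EV-treated libraries, against 43.8, 37.7 and 62.6 CPM in control libraries. It was the deepest fall among the laminins, at -4.97 on the log2 scale (SE 0.28, edgeR adjusted p = 3.1e-07). Lamb2 (chr9:108479736-108490530), the beta chain of vessel and synaptic basement membranes, had 4.92, 4.56 and 7.56 CPM in EV-treated libraries, against 54.7, 37.7 and 45.5 CPM in control libraries (log2 fold change -3.02, SE 0.22, edgeR adjusted p = 1.57e-06).

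Lamb3, the beta chain that usually pairs with Lama3, did not fall with it. It had 0.654, 0.440 and 0.562 CPM in EV-treated libraries and 0.0228, 0.134 and 0.122 CPM in control libraries, and rose by 2.54 on the log2 scale (edgeR adjusted p = 0.00211). All 3 EV-treated but only 2 control libraries were past the filter's cut, so Lamb3 met the filter in the group where it is high. Lama5, an alpha chain of mature vessel walls, rose by 2.20 (edgeR adjusted p = 0.000704) at 0.554 to 0.625 CPM in EV-treated and 0.0867 to 0.186 CPM in control libraries. Lama4, the other vessel chain, did not pass, with a log2 fold change of 0.38 (edgeR adjusted p = 0.483). Lamb1, the widespread beta chain, had 0.347, 0.149 and 0.429 CPM in EV-treated and 0.425, 0.488 and 1.54 CPM in control libraries. It fell by 1.41 (edgeR adjusted p = 0.0481) with overlapping groups, and stood at -0.58 without control C (edgeR adjusted p = 0.309). The Lamb1 call was also lost without EV-treated A (edgeR adjusted p = 0.0965) or EV-treated B (edgeR adjusted p = 0.132), with RLE scaling, with the stricter filter and with limma-voom (adjusted p = 0.0506 to 0.0747). Lama2, the alpha chain of muscle and glial basement membranes, fell by 2.72 (edgeR adjusted p = 0.0308) on at most 0.212 CPM, passed the filter through the control libraries alone, and stood at -7.35 without EV-treated C, the sole EV-treated library in which it was counted, a value that then depends on the prior count of the fit. It did not pass without EV-treated A, EV-treated B, control B or control C (edgeR adjusted p = 0.0541 to 0.096).

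The linkers of the laminin and type IV collagen networks were divided too. Nid1 (chr13:13437602-13512275), which encodes nidogen, had 7.89, 5.95 and 9.73 CPM in EV-treated libraries, against 2.00, 1.96 and 5.71 CPM in control libraries. The groups came close through control C (log2 fold change 1.28, SE 0.39, edgeR adjusted p = 0.0159), and the value was 1.97 without it. Nid2, the second nidogen, was lower at 0.363, 0.237 and 0.429 CPM in EV-treated libraries, against 1.51, 1.31 and 1.43 CPM in control libraries (log2 fold change -2.04, SE 0.28, edgeR adjusted p = 0.000131). Hspg2 (chr4:137468769-137570630), which encodes the heparan sulfate proteoglycan perlecan, had 11.4, 11.1 and 15.6 CPM in EV-treated libraries, against 2.58, 2.43 and 9.03 CPM in control libraries. Its log2 fold change was 1.43 (SE 0.45, edgeR adjusted p = 0.018) and 2.32 without control C. Without EV-treated C neither Nid1 (edgeR adjusted p = 0.0574) nor Hspg2 (edgeR adjusted p = 0.0592) passed, and Hspg2 did not pass without control A either (edgeR adjusted p = 0.051). With library totals alone, Nid1 (0.91, edgeR adjusted p = 0.0684) and Hspg2 (1.06, edgeR adjusted p = 0.0627) did not pass.

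The ratio of Y-linked counts to Xist, which can reflect the sex make-up of a culture, moved with the groups. As a log2 ratio it was -4.86, -4.90 and -5.51 in EV-treated libraries, and -1.35, -1.65 and -3.86 in control libraries, so control C lay nearer to the EV-treated libraries than the other controls did. Because the ratio and the groups moved together, a fit that holds both cannot fully tell them apart. What it separates rests on differences within groups, the widest that of control C from the other controls. The values below show how far calls depend on the ratio and are not results adjusted for sex. Over all 16605 entries, an edgeR fit with this ratio as a covariate gave 3599 risen and 3672 fallen. Of the 45 tested members, 5 rose and 20 fell with the covariate. Of the 20, 6 had not passed without it: Col1a2 (-1.92), Col4a1 (-2.34), Col8a1 (-4.60) and Col28a1 (-2.71), and Col4a2 (-0.81) and Col16a1 (-1.40), which both turned sign. Hspg2 then stood at -0.45 (edgeR adjusted p = 0.162) and Nid1 at -0.34 (edgeR adjusted p = 0.385), opposite in sign to the fit without it, and Lamc1 at 0.56 no longer passed (edgeR adjusted p = 0.173). Col9a2, Col11a2, Col27a1, Lama5 and Lamb3, which had risen, and Col6a2, which had fallen, did not pass either. On the log2 scale, Lox (7.88), Col5a3 (3.02), Col5a1 (2.06), Col6a6 (1.75) and Col23a1 (2.81) still rose, and Fn1 (-3.35), Col4a5 (-4.84), Lama3 (-5.69), Lamb2 (-3.13) and Col14a1 (-4.34) still fell. Among the other members that fell, Col5a2 (-3.34), Lamb1 (-3.32), Col24a1 (-3.04), Col3a1 (-2.79), Col18a1 (-2.10), Lama2 (-4.28) and Col4a6 (-5.20) lay farther below 0 than in the fit without the ratio.

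The 14 members removed by the filter had at most 27 counts in any library. Col11a1 reached 27 counts, Col2a1 19, Col6a5 18, Col26a1 16 and Lama1 15. Col25a1 (11), Col19a1 (10), Col6a4 (7), Col10a1 (6), Lamc3 (6), Col13a1 (5), Col8a2 (3), Col22a1 (3) and Col9a1 (2) held fewer. Col26a1 and Col9a1 had no count in any control library. In Col11a1 the groups did not overlap, with 1, 5 and 6 counts in EV-treated libraries and 27, 22 and 11 in control libraries. Lama1 had 4, 15 and 5 counts in EV-treated libraries and 2, 3 and 4 in control libraries. In the fit without the filter Col11a1 passed as lower (log2 fold change -2.18, edgeR adjusted p = 0.0115) and Col26a1, with 0, 11 and 16 counts in EV-treated libraries and 0 in each control library, as higher (edgeR adjusted p = 0.000442). In that fit the remaining filtered members did not pass.

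Receptors and other matrix genes, taken as lists apart from the members, give the setting. Of 31 tested receptors of collagen, laminin and fibronectin, 17 rose, 7 fell and 7 did not pass, with a median log2 fold change of 0.72. Over all entries 33% rose and 33.5% fell. With the ratio of sex-linked genes as a covariate, 8 receptors rose and 7 fell. Sdc4, a syndecan that binds fibronectin beside integrins, had 242, 227 and 232 CPM in EV-treated libraries, against 16.7, 23.2 and 16.1 CPM in control libraries (log2 fold change 3.65, SE 0.16, edgeR adjusted p = 6.64e-08). Itgb3, the beta chain of an integrin for fibronectin and vitronectin, had 159, 125 and 173 CPM in EV-treated libraries, against 32.9, 33.9 and 35.2 CPM in control libraries (log2 fold change 2.16, SE 0.13, edgeR adjusted p = 5.83e-07). Lair1, an inhibitory leukocyte receptor for collagen, had 9.82, 9.22 and 7.69 CPM in EV-treated libraries, against 162, 139 and 161 CPM in control libraries (log2 fold change -4.11, SE 0.14, edgeR adjusted p = 1.24e-08). Itgb5, the beta chain of a vitronectin receptor, was lower as well, at 68.4, 63.1 and 61.2 CPM in EV-treated and 973, 562 and 741 CPM in control libraries (log2 fold change -3.56, SE 0.20, edgeR adjusted p = 3.15e-07).

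Of 56 other matrix and basement membrane genes 26 were removed by the filter, 8 rose, 8 fell and 14 did not pass. The median log2 fold change was 0.28 over the 30 tested. Beside them, 33% of all entries rose and 33.5% fell. Frem2, a basement membrane protein of the Fraser complex, had 21.02, 20.3 and 23.6 CPM in EV-treated libraries, against 0.197, 0.236 and 0.244 CPM in control libraries (log2 fold change 6.57, SE 0.16, edgeR adjusted p = 3.2e-09). Emilin2, a glycoprotein of elastic fibres, had 329, 317 and 380 CPM in EV-treated libraries, against 34.8, 35.4 and 38.4 CPM in control libraries (log2 fold change 3.24, SE 0.12, edgeR adjusted p = 2.55e-08). Its paralog Emilin1 moved the other way, at 4.25, 3.17 and 3.65 CPM in EV-treated and 12.9, 12.3 and 16.3 CPM in control libraries (log2 fold change -1.90, SE 0.17, edgeR adjusted p = 5.58e-06). Ltbp3, which holds latent transforming growth factor in the matrix, had 10.8, 8.05 and 11.8 CPM in EV-treated libraries, against 43.9, 31.3 and 36.0 CPM in control libraries. It fell by 1.86 on the log2 scale (SE 0.17, edgeR adjusted p = 9.54e-06), but by 0.33 with the exon bin of most counts in place of the sum (edgeR adjusted p = 0.0748).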

How the data were processed

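Polyadenylated RNA extracted with Trizol was sequenced from NEBNext Ultra libraries of 6 samples, 3 EV-treated and 3 control, per the labels' protocols. Trimmomatic 0.36, STAR, Subread and DESeq2 and the build GRCm38 are named in the submitters' processing notes. Settings, annotation release and strand use were not given in the sources used here. The deposited values are raw counts per exon bin, per the file headers. A read may be counted in several bins, so a sum over bins is not a number of reads.

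Bins were summed per gene entry. Entries were filtered with filterByExpr (minimum count 10), scaled by TMM (factors 0.855 to 0.921 in EV-treated and 1.09 to 1.16 in control libraries) and compared with edgeR 4.0.16 in R 4.3.3 (glmQLFit, glmQLFTest, 2-sided, no covariate, Benjamini-Hochberg over all entries). A standard error is the log2 fold change over the square root of F. Exon bin use was tested with diffSpliceDGE, whose natural-log coefficients were turned into log2. Coding segments and neighbours came from GENCODE M21, upstream windows from RefSeq GRCm38.p6. Both tests were tried on simulated data.

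Named in full were members that passed with a mean log2 CPM of at least 1 (at most 12 a direction), the 5 highest per kb of each group, and up to 2 rising and 2 falling genes of each list. The members and lists were chosen with earlier results of these data known. The motifs, the Fn1 segments, the Col18a1 starts and the counts on control C were chosen after values were seen. Samples were not paired by replicate letter, since the labels do not say whether the letters mark shared cultures. DESeq2 1.42.0 and limma 3.58.1 (voom), other scalings and filters, the bin with the most counts, single-gene entries, a threshold of 0.01, a sex-linked covariate and leaving out each library were the alternatives. The values of 1 tested member are not reported here, though it stays in the fits and counts.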

Additional observations from a re-analysis of the deposited data

How the results depend on the processing

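With all 28 called members set against up to 18 alternatives, 16 kept their direction and passed in every one, 12 lost the call in at least 1, and 2 of these, Hspg2 (-0.45) and Nid1 (-0.34), reversed with the sex-linked covariate, as did Ltbp2 (-0.32) and Tnc (-0.46) of the other matrix list. The cause was not tested. With that covariate 5 members rose rather than 13 and 20 fell rather than 15. In that fit 8 receptors rose rather than 17 and 5 other matrix genes rather than 8. Over all entries 3599 rose and 3672 fell rather than 5482 and 5555. With the exon bin of most counts in place of the sum, 9 members fell rather than 15. Without the filter, 13 other matrix genes rose. Leaving out 1 library in turn gave 10 to 17 members that rose, 12 to 17 that fell and 1 to 3 with changed exon bin use. Where bins needed 50 counts in 3 libraries, edgeR called 0 of 13 members for bin use rather than 2, with 0 at an unadjusted p under 0.05, and 13 rather than 27 members were left to test. The Fn1 EDA exon passed in all 9 alternatives of the bin test (relative log2 2.34 to 2.56, edgeR adjusted p at most 0.0432). The V segment passed in 1 of 9, the replicate block (1.34, edgeR adjusted p = 7.61e-14). Scaling by library totals alone moved the median of all entries to -0.38 and gave 34% risen among the calls rather than 49.7%, and upper-quartile scaling gave -0.14 and 44.1%.

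The labels do not say whether the replicate letters pair the samples, and the fits above did not pair them. Same-letter deviations correlated at 0.035 for A, 0.167 for B and 0.21 for C, each the highest for its library. For EV-treated A the value with control B was nearly the same, at 0.0341. Deviations were taken from the mean of 3 libraries, so these correlations depend on each other. They are at most a hint from the data and not the design. With the letter as a replicate block, 17 members rose, 16 fell and 3 had changed exon bin use (Col14a1, Col20a1 and Fn1), while Col4a5 did not (edgeR adjusted p = 0.554). Col4a2 (1.08), Col6a1 (0.99), Col12a1 (1.23) and Col8a1 (-2.28) passed in that fit. The deposited column headers number the libraries in another way. By those numbers 2 pairs could be made, EV-treated B with control A and EV-treated C with control B, whose deviations correlated at 0.00973 and -0.199.

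Low counts (27 at most) limit what can be said of the 14 members that were filtered out, and 23 tested members had a mean log2 CPM below 1. Joined entries, unknown strand use and reads counted in several bins limit single values.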
